A study of Mus musculus with 10 samples.

Results

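The pyruvate dehydrogenase kinases (Pdk1, Pdk2, Pdk3 and Pdk4), their opposing phosphatases (Pdp1 and Pdp2) and 4 subunits of the complex they act on (Pdha1, Pdhb, Dlat and Pdhx) were followed in mouse liver. The 10 genes were taken by their symbols, out of 24421 genes listed, and all 10 were found. The family was chosen by the CPM of Pdk4, which was higher in the TM5614 group of these same libraries, so the Pdk4 difference is given as a description, with no p-value, and supports nothing here. The other 9 genes were taken because they belong to the family.

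The livers of 10 male wild-type mice with free access to food were sequenced. The labels give their strain as C57BL/6 (C57BL/6 J in the study's methods) and their age as 21 weeks. The Chow group (n = 5, mouse numbers 41 to 45) ate standard chow. The TM5614 group (n = 5, mouse numbers 46 to 50) ate the same kind of chow with TM5614 mixed in for 10 days, which delivered 20 mg/kg/day. This compound, given by mouth, inhibits PAI-1 (plasminogen activator inhibitor 1), and the comparison asks how the liver transcriptome differs after short exposure to it. Each mouse gave 1 library. All mice carried the wild-type genotype, and no group had a change in the gene of the drug target. In whole liver, fewer cells of a type and less RNA per cell cannot be told apart.

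The pyruvate dehydrogenase complex sits in the mitochondrial matrix and turns pyruvate into acetyl-CoA, which commits carbohydrate carbon to the citric acid cycle or to fatty acid synthesis. The kinases phosphorylate the alpha subunit of its first enzyme and switch the complex off, and the phosphatases remove the phosphate and switch it on. PDK4 is known as the kinase that liver, muscle and heart raise in fasting, when fatty acids are burned and pyruvate is spared for glucose production. PDK2 is known as the most widely expressed of the kinases and the main one of the fed liver.

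The stretches just upstream of the 3 kinase genes that the results turn on are shown so that their sequence can be set beside their different levels. They come from the RefSeq table of promoters (GRCm38.p6), in which 9 of the 10 members were matched (all but Pdp1), with 11 start sites. Each is printed 5′ to 3′ on the strand of its gene and ends at the RefSeq start, or at the GENCODE start where that lies further upstream, as for Pdk4, which left 219 of its 250 bases. Capitals mark matches, on either strand, to 6 motifs that were searched for: the CCAAT box (CCAAT), an E-box (CACGTG), a GC box (GGGCGG), a forkhead site (GTAAACA), a nuclear receptor site (AGGTCA) and a TATA box (TATAAA).
Pdk4, chr6:5496310-5496528, minus strand: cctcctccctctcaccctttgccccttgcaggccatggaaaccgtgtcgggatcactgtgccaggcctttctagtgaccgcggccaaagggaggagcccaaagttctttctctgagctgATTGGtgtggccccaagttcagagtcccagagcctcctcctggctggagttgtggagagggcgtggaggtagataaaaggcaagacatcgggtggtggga
Pdk2, chr11:95041372-95041621, minus strand: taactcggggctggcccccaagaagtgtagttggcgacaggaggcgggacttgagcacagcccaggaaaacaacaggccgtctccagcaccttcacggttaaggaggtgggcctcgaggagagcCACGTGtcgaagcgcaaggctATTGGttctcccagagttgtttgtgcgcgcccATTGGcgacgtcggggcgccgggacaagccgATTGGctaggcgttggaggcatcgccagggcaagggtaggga
Pdk1, chr2:71872974-71873223, plus strand: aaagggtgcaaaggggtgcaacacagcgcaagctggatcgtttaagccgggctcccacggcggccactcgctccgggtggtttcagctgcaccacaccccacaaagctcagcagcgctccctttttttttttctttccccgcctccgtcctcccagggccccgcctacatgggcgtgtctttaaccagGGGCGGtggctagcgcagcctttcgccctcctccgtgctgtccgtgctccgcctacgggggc
In its 250 bases Pdk4 held 1 match, a CCAAT box on the opposite strand. Pdk2 held 3 CCAAT boxes, also on the opposite strand, and 1 E-box at this start. Pdk1 held 1 GC box at this start. Both genes have another listed start, at which neither held any of the 6 motifs. Among all 32851 windows of this length in the table, 33.8% held a CCAAT box, 32.7% a GC box, 14.0% the nuclear receptor site, 12.4% the TATA box, 6.0% the E-box and 3.2% the forkhead site. A match is a string of letters and not a site shown to be bound.

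The total count per library ranged from 6398335 to 10874955. The labelled tissue was checked with 9 hepatocyte genes, whose summed level was 140210 to 156498 CPM (counts scaled to a common library size) in Chow and 121471 to 143044 CPM in TM5614. None of the 9 passed the test, and 3 of 9 were higher in TM5614. Ass1, 1 of the 9, had only 6 to 27 counts per library. Chow replicate 2 stood apart: its mean correlation with its own group was 0.927, against 0.965 to 0.970 for the other Chow libraries. GC content and length accounted for 46.0% of its deviation from the median of all libraries of both groups. In the other 9 libraries this share was 0.763% to 11.5%. Chow replicate 2 was the lowest Chow library for 6 of the 9 tested members and the highest for 1, Pdk2. Pdk2 transcripts have the highest GC content of the members (56.9%, against 39.2% to 47.7%). TM5614 replicate 2, mouse number 47, held skeletal muscle transcripts, as described below for Pdk4. For part of the results, values without 1 of these libraries are given as well.

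Of the 10 members, 9 had enough counts to be tested. Differences were tested with edgeR's quasi-likelihood test, with Benjamini-Hochberg adjustment over 11092 genes and a threshold of 0.05. The count of members past the threshold was 1 of 9 (11.1%), beside 4.50% of all genes tested. That member was Pdk4, whose values chose the family, so nothing is read from the count. None of the other 8 tested members passed. The median log2 fold change was 0.10 over the 9 members and 0.09 over the 8 without Pdk4, beside 0.01 over all genes tested. The log2 fold change was above 0 for 7 of the 9, beside 51.5% of all genes.

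**Figure D1:**
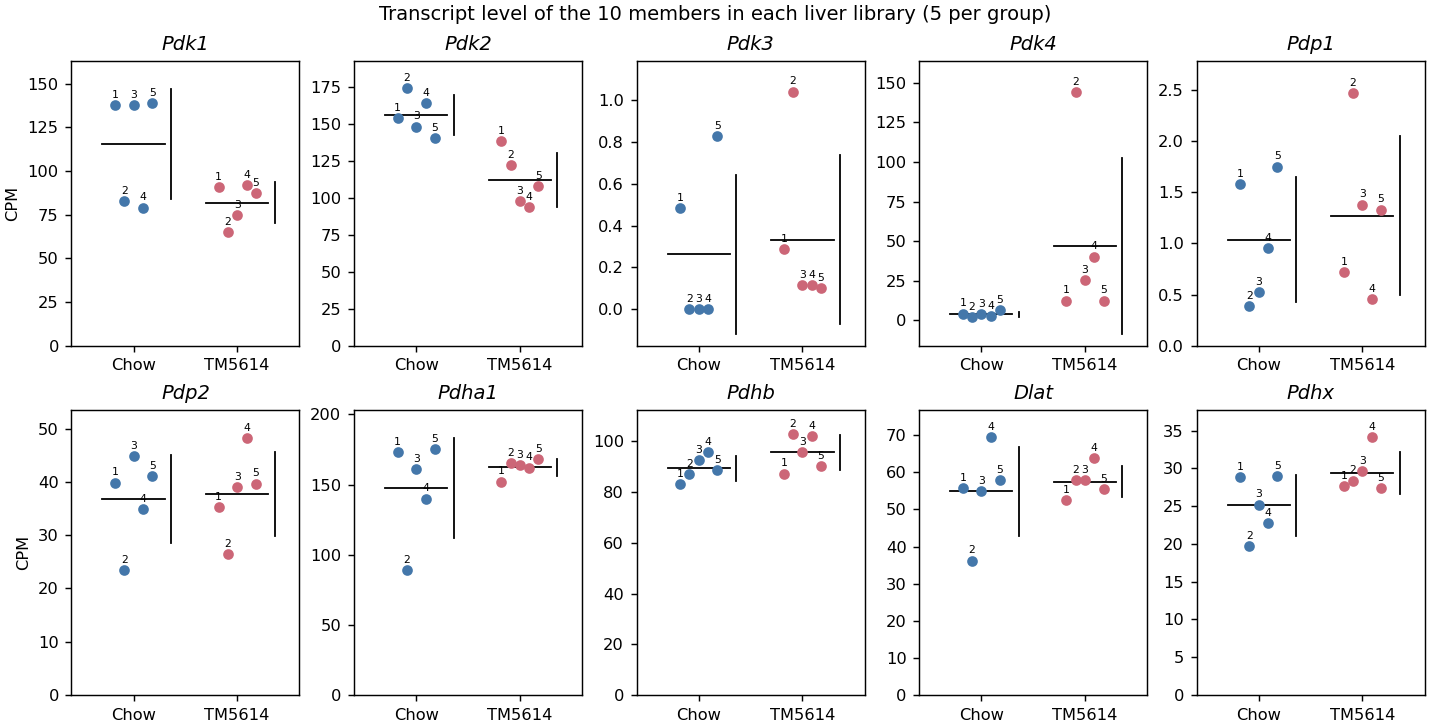
CPM of each member in each library, with Chow in blue and TM5614 in red, the replicate number at each point, a horizontal line at the mean of 5 and a vertical bar of ± 1 SD. Pdk4 and Pdk2 are the members whose groups do not overlap, and in the Pdk4 panel TM5614 replicate 2 lies at 144 CPM.

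Levels of different genes were compared as FPKM, which divides by gene length. In the Chow group Pdk2 had the highest level, 68.1 ± 5.85 FPKM (SD, n = 5), followed by the E1 subunits Pdhb at 59.5 ± 3.14 FPKM and Pdha1 at 52.8 ± 12.8 FPKM. Pdk2 exceeded Pdhb in 5 of 5 Chow libraries, while Pdhb exceeded Pdha1 in only 3 of 5. Pdk1 followed at 22.0 ± 6.01 FPKM, then Dlat at 13.4 ± 2.90 FPKM, and Pdk1 exceeded Dlat in 4 of 5 libraries. Pdp2 at 10.4 ± 2.35 FPKM and Pdhx at 9.83 ± 1.57 FPKM were not separated, with Pdp2 ahead in 3 of 5 libraries. Pdk4 came next at 1.13 ± 0.466 FPKM. At the bottom, Pdp1 had 0.233 ± 0.137 FPKM and Pdk3 had 0.130 ± 0.187 FPKM, with Pdp1 ahead in 4 of 5 libraries.

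In the TM5614 group the order of the means differed for Pdk2, for Pdk4 and for the neighbours Pdhx and Pdp2. Pdk2, at 48.7 ± 7.87 FPKM, stood below both Pdhb (63.6 ± 4.53 FPKM) and Pdha1 (58.0 ± 2.19 FPKM). Pdha1 exceeded Pdk2 in 4 of 5 libraries. In replicate 1 Pdk2, at 60.4 FPKM, exceeded both Pdhb (58.1 FPKM) and Pdha1 (54.4 FPKM). Pdk4 stood by its mean of 13.3 ± 15.6 FPKM between Dlat (14.0 ± 1.03 FPKM) and Pdhx (11.5 ± 1.12 FPKM), but it exceeded Pdhx in only 1 of 5 libraries, replicate 2. That place in the order is therefore not separated from its neighbours by the spread of the libraries. Pdhx stood above Pdp2 (10.7 ± 2.30 FPKM), the reverse of Chow, and exceeded it in 3 of 5 libraries, so this pair was not separated in either group. The order by mean was the same in each group as CPM per length. That measure differs from FPKM only in the scaling of each library, so it is no separate check of the order.

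**Figure D2:**
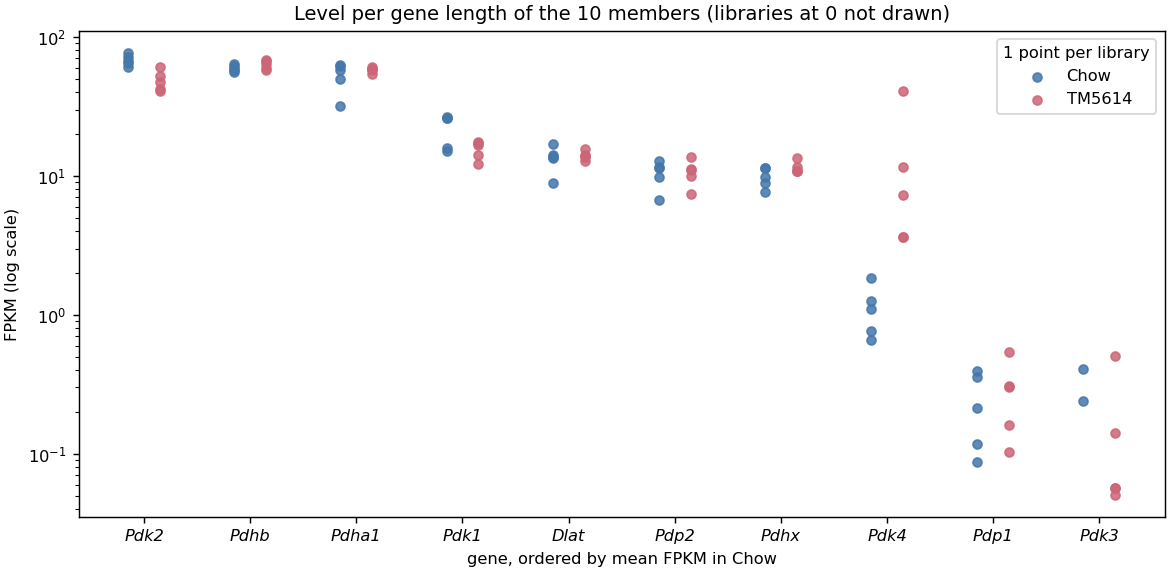
FPKM of the members on a log scale, 1 point per library, with Chow in blue and TM5614 in red and genes ordered by their mean in Chow. Pdk2, Pdhb and Pdha1 lie at the top in both groups, and Pdk4 lies between 0.663 and 1.84 FPKM in Chow and between 3.62 and 40.6 FPKM in TM5614.

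Pdk4 (chr6:5483351-5496309, minus strand, protein coding, GRCm38) had 4.37, 2.31, 3.86, 2.69 and 6.44 CPM in Chow replicates 1 to 5. In TM5614 replicates 1 to 5 it had 12.6, 144, 25.5, 40.3 and 12.6 CPM. Every TM5614 library lay above every Chow library, and the TM5614 values spread over a wider range. The counts behind these values were 17 to 70 per library in Chow and 88 to 1113 in TM5614. The group means were 3.94 ± 1.63 CPM and 47.1 ± 55.6 CPM (SD, n = 5 each), a fitted log2 fold change of 3.56 (SE 0.69), or 11.8-fold.

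Without TM5614 replicate 2 (mouse number 47) the TM5614 mean was 22.8 ± 13.2 CPM (SD, n = 4) and the log2 fold change was 2.51 (SE 0.39). The 4 remaining libraries still lay above all Chow libraries. On the log2 scale the SD of Pdk4 was 0.55 within Chow and 1.45 within TM5614.

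Markers of skeletal muscle moved with Pdk4 in part of the libraries. A list of 22 skeletal muscle genes summed to 1.46 to 2.85 CPM in Chow, where 9 of the 22 were at 0 in every library. In TM5614 replicates 1 to 5 the sum was 2.30, 5496, 99.4, 8.11 and 4.72 CPM. All 22 had counts in replicates 2 and 3, 42351 counts in all in replicate 2 and 867 in replicate 3, led in replicate 2 by Acta1 (skeletal alpha actin, 9330 counts) and Ttn (titin, 7419 counts). Muscle is a tissue in which Pdk4 is abundant. In the libraries with little muscle RNA, Pdk4 was also higher than in Chow. Replicate 1 had a muscle sum of 2.30 CPM, within the Chow range, and 12.6 CPM of Pdk4. Replicate 4, with a muscle sum of 8.11 CPM, had more Pdk4 than replicate 3 with 99.4 CPM. How much of the Pdk4 level came from muscle was not tested in any TM5614 library.

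Heart muscle and fat were looked for in the same way. Of 7 heart genes, the defining markers Myh6 (the cardiac myosin heavy chain) and Nppa (atrial natriuretic peptide) were at 0 in all 10 libraries. The heart sum reached 46.1 CPM in TM5614 replicate 2, all from Actc1 and Tnnt2, and was 0.431 to 1.49 CPM elsewhere. The 6 adipose genes summed to 9.38 CPM in Chow replicate 5, with all 6 present, including 28 counts of Adipoq (adiponectin) and 12 of Ucp1 (the brown fat uncoupling protein). They summed to 19.5 CPM in TM5614 replicate 2, 3.55 CPM in TM5614 replicate 3 and 0.209 to 1.54 CPM elsewhere. Chow replicate 5 also had the highest Pdk4 and Pdk3 of the Chow group, and without it the Pdk4 log2 fold change was 3.82. The part of fat in these levels was not tested. None of the tested genes passed in the lists for Kupffer cells (0 of 10), endothelium (0 of 6) and stellate cells (0 of 5). The same held for cholangiocytes (0 of 3), adipose tissue (0 of 1) and red cells (0 of 1). In direction, 0 of 10 Kupffer genes, 3 of 6 endothelial genes and 5 of 5 stellate genes were higher in TM5614. The red cell gene tested was Alas2, as the listed haemoglobin genes had 0 counts in every library. These lists therefore do not show an unchanged cell makeup. No lymphocyte, exocrine pancreas, skeletal muscle or heart gene had enough counts in enough libraries to be tested.

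**Figure D3:**
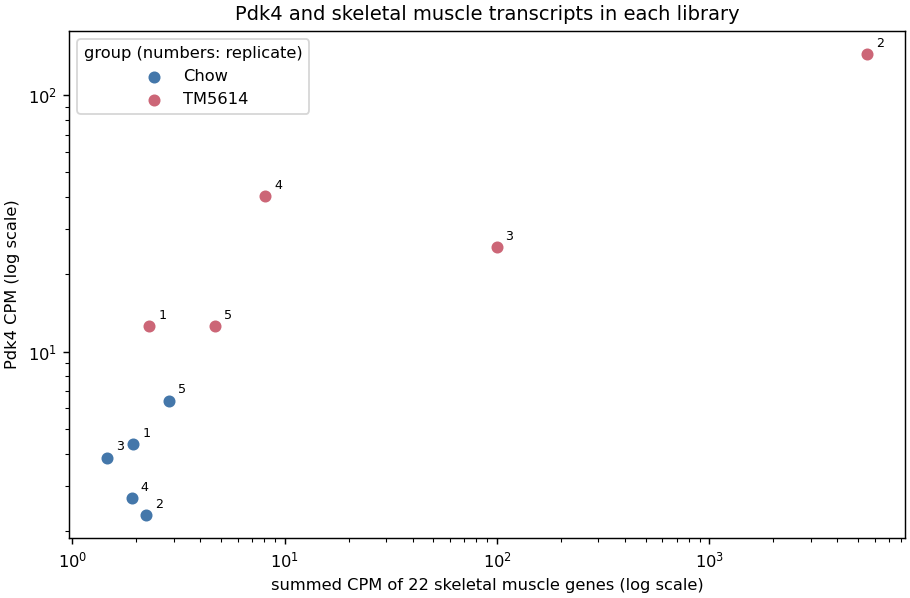
Pdk4 CPM against the summed CPM of 22 skeletal muscle genes in each library, both on log scales, with Chow in blue, TM5614 in red and the replicate number at each point. TM5614 replicate 2 lies alone at the upper right (5496 and 144 CPM), while TM5614 replicates 1, 4 and 5 have muscle sums of 2.30 to 8.11 CPM and Pdk4 above all Chow points.

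Pdk2 (chr11:95026258-95041354, minus strand, protein coding), the kinase with the highest level in these livers, had 154, 174, 148, 164 and 140 CPM in Chow replicates 1 to 5. In TM5614 replicates 1 to 5 it had 138, 122, 97.5, 93.6 and 108 CPM. The groups did not overlap, although the lowest Chow and the highest TM5614 library were close. Together with Pdk4 it made 2 of 9 members without overlap, beside 8.93% of all genes tested. Pdk4 chose the family, so nothing is read from that count. Among the 8 tested members other than Pdk4, only Pdk2 had groups without overlap. The means were 156 ± 13.4 and 112 ± 18.4 CPM (SD, n = 5 each) and the fitted difference was -0.48 on the log2 scale, with an SE of 0.13. The adjusted p from edgeR was 0.0516, which did not pass the threshold.

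The call for Pdk2 depended on the setting, while its direction did not. It passed with DESeq2 (adjusted p = 0.00393) and with RLE factors (edgeR adjusted p = 0.0498). It also passed without Chow replicate 2 (log2 fold change -0.44, adjusted p = 0.0272) and without TM5614 replicate 1 (-0.57, adjusted p = 0.0316). With an offset for GC content and length it did not pass, at -0.32 (adjusted p = 0.113), and the part of GC content in the Pdk2 difference was not tested further.

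Pdk1 (chr2:71873224-71903858, plus strand, protein coding), a kinase known as a target of hypoxia signalling, had 138, 83.0, 138, 79.1 and 139 CPM in Chow replicates 1 to 5. In TM5614 replicates 1 to 5 it had 91.0, 65.1, 74.8, 92.0 and 87.3 CPM. The Chow libraries fell at separate levels, 3 near 138 CPM and 2 (replicates 2 and 4) within the TM5614 range, so the groups overlapped. The fitted difference was -0.49 on the log2 scale with an SE of 0.19, as large as that of Pdk2 with a wider error, and edgeR gave an adjusted p of 0.168. It passed with the GC content and length offset (-0.62, adjusted p = 0.0254) and without Chow replicate 2 (-0.60, adjusted p = 0.0373).

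Pdk3 (chrX:93764607-93832201, minus strand, protein coding), a kinase known mainly from testis, kidney and brain, was close to the limit of detection. Its counts were 4, 0, 0, 0 and 9 in Chow replicates 1 to 5 and 2, 8, 1, 1 and 1 in TM5614 replicates 1 to 5. The 2 highest counts came from Chow replicate 5 and TM5614 replicate 2, the libraries with the highest adipose sums. Pdk3 did not pass the filter on low counts. Fitted without that filter, its log2 fold change was 0.22 with an SE of 1.05 (edgeR adjusted p = 0.943), and a difference between the groups was not detectable at this depth.

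The makeup of the kinase transcripts was compared in FPKM. The 4 kinases summed to 91.4 ± 3.15 FPKM in Chow and 77.8 ± 16.8 FPKM in TM5614 (SD, n = 5 each), with ranges of 86.9 to 95.1 and 64.1 to 106 FPKM that overlapped. Without TM5614 replicate 2, whose sum was the highest of all libraries, the TM5614 libraries lay at 64.1 to 81.5 FPKM and below all Chow libraries. Pdk1, Pdk2 and Pdk3 alone summed to 90.2 ± 3.17 FPKM in Chow and 64.5 ± 8.24 FPKM in TM5614. The ranges of this sum (86.1 to 93.9 and 56.8 to 77.8 FPKM) did not overlap. It was not tested, and neither Pdk1 nor Pdk2 passed with edgeR (adjusted p = 0.168 and 0.0516).

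Pdk4 made up 1.32%, 0.715%, 1.20%, 0.883% and 2.05% of kinase FPKM in Chow replicates 1 to 5. In TM5614 replicates 1 to 5 it made up 4.44%, 38.5%, 11.4%, 16.5% and 5.34%. Pdk4 was a minority of the kinase transcripts in every library, TM5614 replicate 2 included. Pdk2 had the largest share in every library, 74.6% ± 6.85 in Chow and 63.7% ± 9.80 in TM5614, or 67.2% ± 6.67 (SD, n = 4) without TM5614 replicate 2. The ratio of Pdk4 to Pdk2 was 0.0171 ± 0.00842 in Chow and 0.273 ± 0.295 in TM5614, or 0.147 ± 0.102 (n = 4) without replicate 2. The shares, the ratio and the sum of 4 kinases contain Pdk4, which chose the family, and are given without a test.

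**Figure D4:**
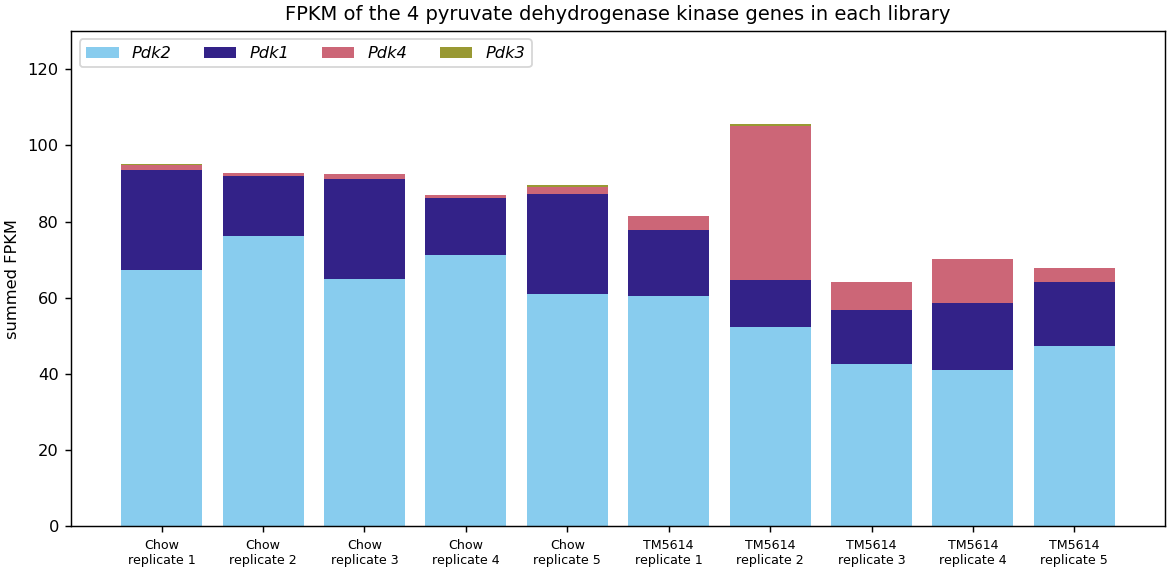
Stacked FPKM of Pdk2, Pdk1, Pdk4 and Pdk3 in each library. Pdk2 is the largest segment in all 10 libraries, the Pdk4 segment is visible mainly in the TM5614 libraries, and TM5614 replicate 2 has the tallest bar (106 FPKM).

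The phosphatases showed no difference past the threshold. Pdp2 (chr8:104591451-104599026, plus strand, protein coding), the isoform known as insulin responsive in liver and fat, had 23.5 to 44.9 CPM in Chow and 26.5 to 48.3 CPM in TM5614, with means of 36.9 ± 8.27 and 37.8 ± 7.91 CPM. Its log2 fold change was 0.04 (edgeR adjusted p = 0.931), with an interval of ± 2 SE from -0.34 to 0.42. Pdp1 (chr4:11958184-11966452, minus strand, protein coding), the calcium-stimulated isoform known from muscle, had 4 to 19 counts per library in both groups, so its log2 fold change of 0.29 (SE 0.50, adjusted p = 0.765) rests on few reads. Pdp1 was highest, at 2.47 CPM, in TM5614 replicate 2, and without that library its log2 fold change was -0.07. The summed kinase to phosphatase ratio in FPKM was 9.05 ± 2.69 in Chow and 7.61 ± 3.41 in TM5614, and the ranges overlapped. In each group replicate 2 was the highest, at 13.8 in Chow and 13.4 in TM5614. The other Chow libraries lay at 7.20 to 8.68. The other TM5614 libraries lay at 5.09 to 8.04, with a mean of 6.16 ± 1.29 (n = 4), so these ranges overlapped too.

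None of the 4 subunits of the complex passed the test. Pdha1 (chrX:160122209-160138413, minus strand), the E1 alpha subunit that carries the regulatory phosphates, had 173, 88.8, 161, 140 and 175 CPM in Chow and 152, 165, 164, 162 and 168 CPM in TM5614, each from replicate 1 to 5. Chow replicate 2 lay below all other libraries. The log2 fold change was 0.14 (± 2 SE from -0.19 to 0.46, adjusted p = 0.649) and was -0.01 without Chow replicate 2.

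Pdhb (chr14:8165996-8173025, minus strand), the E1 beta subunit, had 83.1 to 95.7 CPM in Chow and 87.3 to 103 CPM in TM5614. Its log2 fold change was 0.10 (± 2 SE from -0.09 to 0.29, adjusted p = 0.563), the narrowest interval of the members. Dlat (chr9:50634633-50659780, minus strand), the E2 acetyltransferase that forms the core, had 36.2 to 69.4 CPM in Chow and 52.6 to 63.8 CPM in TM5614, a log2 fold change of 0.07 (± 2 SE from -0.23 to 0.37, adjusted p = 0.815). Pdhx (chr2:103021075-103073513, minus strand), which tethers the E3 enzyme to that core, had 19.7 to 29.0 CPM in Chow and 27.4 to 34.2 CPM in TM5614. Its log2 fold change was 0.23 (± 2 SE from -0.03 to 0.49, adjusted p = 0.340). All 4 subunits are protein coding, and in each the groups overlapped. The intervals leave room for changes of up to 0.49 on the log2 scale, and a p that misses the threshold does not show equal levels.

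Genes that work with the complex were read from lists chosen with earlier results of these data known. Of 7 partners, none passed in either direction, beside 4.50% of all genes, and their median log2 fold change was 0.05. They were Dld (the E3 dehydrogenase, 145 ± 35.9 CPM in Chow and 178 ± 9.02 CPM in TM5614, log2 fold change 0.29, adjusted p = 0.350), Mpc1 and Mpc2 (the mitochondrial pyruvate carrier), Pdpr (the regulatory subunit of the phosphatase), and Lias, Lipt1 and Lipt2 (lipoic acid synthesis and transfer). Of 8 tested genes of related 2-oxo acid dehydrogenase complexes, with the kinase and phosphatase of the branched-chain complex, none passed either, and the median was -0.02.

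Among 21 tested genes of the other fates of pyruvate and acetyl-CoA, 2 rose and 1 fell, beside 1.73% higher and 2.77% lower of all genes, and the median was 0.05. Ldha, the lactate dehydrogenase subunit that interconverts pyruvate and lactate, had 540 to 664 CPM in Chow and 1073 to 1322 CPM in TM5614. Its means were 595 ± 49.6 and 1193 ± 118 CPM, a difference of 1.00 on the log2 scale with an SE of 0.11 (adjusted p = 4.02e-04), and without TM5614 replicate 2 the TM5614 mean was 1223 CPM. Slc16a1, the monocarboxylate transporter MCT1 that carries lactate and pyruvate across the cell membrane, rose from 46.7 ± 10.0 to 104 ± 19.7 CPM (log2 fold change 1.16, SE 0.17, adjusted p = 0.00266). Fasn, the fatty acid synthase, fell from 153 ± 44.2 to 59.4 ± 13.7 CPM (log2 fold change -1.37, SE 0.22, adjusted p = 0.00391). Pklr (liver pyruvate kinase) had a log2 fold change of -0.98 (adjusted p = 0.0613) and Slc25a1 (the citrate carrier) of -0.85 (adjusted p = 0.0596), and neither passed. Pcx (pyruvate carboxylase) had -0.14 and Pck1 (the gluconeogenic carboxykinase) 0.16, with adjusted p of 0.544 and 0.677 respectively.

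**Figure D5:**
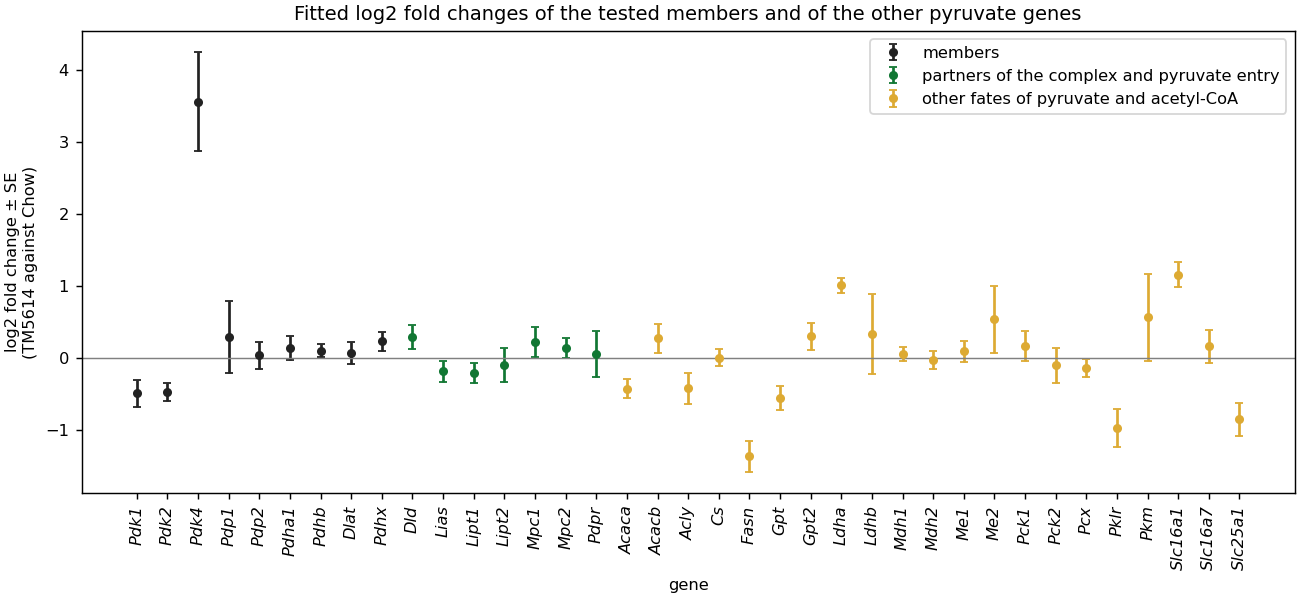
Fitted log2 fold change (TM5614 against Chow) with ± 1 SE for the 9 tested members (black), the 7 partners of the complex (green) and the 21 tested genes of other fates of pyruvate and acetyl-CoA (yellow). Pdk4 lies at 3.56, the subunits and partners lie near 0, and Ldha, Slc16a1 and Fasn are the others past the threshold.

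Factors known to control Pdk4 were listed with their receptors and cofactors, 14 genes in all. Of these 1 rose and 2 fell, beside 1.73% higher and 2.77% lower of all genes tested: Irs1, an insulin receptor substrate (log2 fold change 0.62, adjusted p = 0.0485), Ppargc1b, a coactivator (-0.83, adjusted p = 0.0417), and Rxra, the partner receptor of PPAR-alpha (-0.38, adjusted p = 0.0417). All lay near the threshold, and 0 of the 14 passed without TM5614 replicate 2 or without a filter on low counts. Ppara (-0.03, adjusted p = 0.922), Foxo1 (-0.26, adjusted p = 0.360), Nr3c1, the glucocorticoid receptor (0.02, adjusted p = 0.950), and Ppargc1a (0.14, adjusted p = 0.826) did not pass.

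Pdk4 is a known target of PPAR-alpha, the fatty acid receptor of liver. A list of 24 other targets was chosen with earlier results of these data known. Of these 24 targets 10 rose and none fell, beside 1.73% higher and 2.77% lower of all genes tested. Their median log2 fold change was 0.52, beside 0.01 over all genes, and 23 of 24 were above 0, beside 51.5%. The largest were Fgf21, a fasting hormone (3.04, adjusted p = 1.36e-04), Ehhadh, a peroxisomal beta-oxidation enzyme (2.31, adjusted p = 8.89e-04), Acot1, an acyl-CoA thioesterase (2.04, adjusted p = 3.4e-04), and Cyp4a10, a fatty acid hydroxylase (1.40, adjusted p = 0.00167). Acot1 and Cyp4a10 have close copies in the genome, and the split of reads between them is uncertain. Without TM5614 replicate 2 the count was again 10, with Pex11a in place of Acadl. Over all libraries left out in turn it ranged from 7 to 14, and it was 7 without a filter on low counts. TM5614 replicate 2, the library with the most muscle RNA, had the lowest Acot1 (91.4 CPM), Ehhadh (1128 CPM) and Cyp4a10 (2282 CPM) of its group. Its Fgf21, at 9.86 CPM, was above that of replicate 1 (9.62 CPM). The part of muscle RNA in these levels was not tested. The counts for this list are a description, and the part of PPAR-alpha in the Pdk4 difference was not tested.

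Time of day is a further known influence on Pdk4, and no sampling time was given in the sources used here, so it cannot be told apart from the treatment if the groups were sampled at different times. Of 13 tested clock genes 2 rose and 4 fell, beside 1.73% higher and 2.77% lower of all genes tested, with a median of -0.51 beside 0.01 over all genes. The largest were Arntl, the core activator (1.68 ± 1.39 and 11.3 ± 4.73 CPM, log2 fold change 2.76, adjusted p = 0.00659), Per3, a repressor (-2.27, adjusted p = 0.00195), Ciart, a clock repressor (-2.08, adjusted p = 0.00601), and Dbp, an output factor (-1.99, adjusted p = 0.00179). The part of sampling time in the Pdk4 difference was not tested.

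The genes whose log2 CPM was most like that of Pdk4, among 8597 genes with a mean of at least 50 counts, depended on 1 library. Over all 10 libraries they were Tacc2 (Pearson r = 0.942), Unc50 (0.941), Cd9 (0.936), Unc119b (0.931) and Itsn1 (0.921). Over the 9 libraries without TM5614 replicate 2 they were Stip1 (0.978), Arl4a (0.975), Dusp3 (0.970), Tsr1 (0.968) and Tmem167 (0.965), and the lists of 5 shared 0 genes. The libraries fall into the treatment groups, so these values mostly describe the difference between groups.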

How the data were processed

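Polyadenylated liver RNA was sequenced, 1 library per mouse, and titles gave each sample's group and number. Reads were aligned to mm10 with STAR according to the study's methods, and the submitters' processing notes also name HOMER and DESeq2. Versions, annotation and use of strand are not given in the sources used here. The deposited counts are whole numbers per gene and were not normalized by the authors. The deposited FPKM values are counts per gene length whose library divisors equalled DESeq2 size factors (largest log2 difference 4.02e-16), and they were used between genes. The authors' table of their own comparison (mean count, log2 fold change, standard error, statistic, p-value and adjusted p-value) and their regularised log2 table were not used.

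Columns were matched by mouse number. Counts were filtered with filterByExpr, scaled by TMM and tested with edgeR 4.0.16 (quasi-likelihood, two-sided, group only) in R 4.3.3 over 11092 genes, with DESeq2 1.42.0 as an alternative. SE is the absolute log2 fold change over the root of F. log2 CPM had a prior count of 2. Tests were checked on simulated counts. Over the 20 pairs of libraries of a group, chi-square per degree of freedom was at least 8.00, so no library was taken as deposited a second time. Deviations of same-numbered libraries correlated at 0.032 to 0.318, over 0.1 in 3 of 5, which does not exclude pairing. The numbers were not taken as pairs in the main test, and a replicate block is among the alternatives. GC content and length were available for 96.7% of tested genes (GENCODE M21, GRCm38). Named genes were all members, list genes past the threshold (the largest changes first, with some that missed it) and the 5 genes most like Pdk4. The members and lists were chosen with earlier results of these data known. Alternatives were DESeq2, RLE factors, library totals alone, no filter, a replicate block, a GC content and length offset and leaving out each library. Counting error grows at low counts, and total counts per library are given with the results.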

Additional observations from a re-analysis of the deposited data

Results flagged for a closer look

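Pdk4 stood at 144 CPM in TM5614 replicate 2, far from the other TM5614 libraries at 12.6 to 40.3 CPM. The gap to the nearest library was 0.790 of the whole range of the group. This library was known to stand apart in Pdk4 before the values were examined here, so the gap is a description. Pdk3 stood at 1.04 CPM in the same library, against 0.103 to 0.287 CPM in the others, a gap of 0.803 of the range, over Dixon's critical value for 5 samples, that rests on 8 counts against 1 or 2. The same library held 42351 counts of 22 skeletal muscle genes and the highest adipose sum of the series (19.5 CPM), and their part in both values was not tested. In all, 20 groups of 5 values were examined, of which chance singles out about 1 in 20.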

How the results depend on the processing

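Of 274 alternative values for 19 results under 16 settings, 236 kept their direction and side of the threshold or stayed within the spread. For counts, staying meant a value close to the main count by ratio. By that rule 342 called genes (without TM5614 replicate 5) were kept beside 499, and 331 were not. The 236 include the lists of partners and of related complexes, which had 0 calls in every setting. The number of genes called was 499, or 907 with DESeq2, and 235 (without TM5614 replicate 3) to 1031 (without Chow replicate 2) when a library was left out. It was 293 without Chow replicate 3, 331 without TM5614 replicate 1 and 259 without TM5614 replicate 4. The number of members called was 1, or 2 with DESeq2 and with RLE factors (Pdk2 added) and 2 with the GC content and length offset (Pdk1 added). Leaving out a library gave 1 to 3, with 3 (Pdk1, Pdk2 and Pdk4) without Chow replicate 2 and 2 without TM5614 replicate 1. Pdk4 ranged from 2.51 to 3.82 when a library was left out and from 2.94 to 3.62 otherwise.

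The sign turned for members whose values lay near 0. With a library left out, Dlat ranged from -0.05 to 0.16, Pdha1 from -0.01 to 0.21, Pdp1 from -0.07 to 0.60 and Pdp2 from -0.10 to 0.14. With the GC content and length offset it was -0.02 for Dlat and -0.07 for Pdp2. The lowest values came without Chow replicate 2 for Dlat, Pdha1 and Pdp2 and without TM5614 replicate 2 for Pdp1, and Pdp2 was also -0.07 without TM5614 replicate 4. Calls among the genes of other fates of pyruvate went from 3 to 7 with DESeq2 and 5 with the offset, and ranged from 3 to 6 with a library left out, the 6 without Chow replicate 2. Among the regulators of Pdk4 they went from 3 to 0 with no filter and ranged from 0 to 4 with a library left out, being 0 without any 1 of the 5 TM5614 libraries or Chow replicates 1 and 4, and 1 without Chow replicate 3. Clock calls went from 6 to as many as 10, without Chow replicate 2. Of the 5 genes most like Pdk4, 0 stayed among the 5 without TM5614 replicate 2. The cause of these shifts was not tested.

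Whether replicate numbers pair the libraries was not settled. Of 5 Chow libraries 1 correlated best with its own number, while deviations of same-numbered libraries correlated at 0.032 to 0.318. With the number as a replicate block, 555 genes were called (230 higher, 325 lower), and the log2 fold change was 2.94 for Pdk4 and -0.49 for Pdk2.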
